A study of Mus musculus with 2 samples.

Results

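The 6 genes described here, Gdnf, Ret, Gfra1, Etv4, Etv5 and Spry1, form the signaling axis that drives branching of the ureteric bud, the epithelial tree of the developing kidney. They were chosen by symbol from the 32285 genes counted in both libraries, and each symbol matched 1 gene. Messenger RNA in single nuclei of whole mouse kidneys was measured by droplet sequencing (snRNA-seq) at embryonic day E18.5 and postnatal day P3. Each age was a single library made from kidneys of several male and female mice that were pooled before nuclei were isolated, so animals cannot be told apart. The E18.5 kidneys carried floxed Myc and Mycn alleles without a Cre driver (Mycf/f;Mycnf/f (no Cre)) on a mixed background, and the P3 kidneys were labeled Wild type on C57BL/6J, although the methods of the study name a mixed background for both. No treatment was given at either age. Age, genotype, background, library and, per the file headers, the release of the counting software (Cell Ranger) changed together. Their parts in any difference between the ages cannot be told apart.

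GDNF is a secreted ligand made by the mesenchyme around the tips of the ureteric bud. It binds the membrane-anchored co-receptor GFRA1, and the complex activates RET, a receptor tyrosine kinase of the bud epithelium. RET signals through the ERK cascade and raises the ETS transcription factors ETV4 and ETV5, which are needed for branching, while SPRY1 is an intracellular inhibitor that restrains the same cascade. Kidneys form few branches or none when ligand or receptor is lost, and extra ureteric buds form when Spry1 is lost.

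After quality limits and removal of called doublets, 17749 nuclei with 56336462 unique molecular identifiers (UMIs) were kept at E18.5 and 9716 nuclei with 45517380 UMIs at P3. The median nucleus held 2920 UMIs at E18.5 and 4037.5 at P3, and 48 barcodes were shared between the libraries. Nuclei types came from clusters named by marker genes that did not include the 6 genes, which were also left out of the genes used for clustering. A level is given as CPM, the UMIs of a gene per 1000000 UMIs, both summed over the nuclei of a type, and brackets hold 95% intervals (exact Poisson for a level, exact conditional binomial for a ratio, exact binomial for a share). These intervals cover counting error only. With 1 library per age no test between conditions was possible, and statements that values lie apart refer to these intervals alone. The RNA was nuclear, so the levels do not describe protein.

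Over all nuclei, each of the 6 genes had a lower level at P3 than at E18.5. Gdnf was at 39.8 and 17.8 CPM at E18.5 and P3, respectively, and Etv4 was at 46.1 and 20.3 CPM. Gfra1 stood at 168 and 111 CPM and Etv5 at 51.1 and 40.2 CPM. Ret was at 7.77 and 6.59 CPM and Spry1 at 35.8 and 32.5 CPM. A change over a whole library combines the level within each nuclei type with the share of nuclei of that type, and the values below separate them. UMIs of these genes were also found in types that are not known to use the axis. In endothelium-like nuclei, taken as the background throughout, the level of Ret was 2.99 and 2.89 CPM, that of Gdnf 14.0 and 3.53 CPM and that of Gfra1 32.9 and 17.6 CPM at the 2 ages, and free RNA in the droplets was not modeled.

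The genes lie on 6 different chromosomes of the mouse genome (coordinates of the GENCODE M21 annotation of GRCm38, whole gene). Gdnf is at chr15:7810846-7837575 on the plus strand, Ret at chr6:118151745-118197718 on the minus strand and Gfra1 at chr19:58235604-58455909 on the minus strand. Etv4 is at chr11:101769742-101785371 and Etv5 at chr16:22381309-22439719, both on the minus strand, and Spry1 is at chr3:37639947-37644598 on the plus strand. The annotation gives 2 of the 6 genes a partner on the opposite strand. Gfra1 shares 444 bases with Gm16277, which held 38 UMIs at E18.5 and 15 at P3, and Spry1 shares 710 bases with Gm42922, which was not among the counted genes.

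The sequence upstream of a start site is shown for the ligand and for 3 genes whose levels were high together in the tip of the bud, because ETV4 and ETV5 are known to bind a GGAA core. The windows hold the 250 bases before a RefSeq start site in GRCm38.p6, written 5′ to 3′ on the strand of the gene. The letters CCGGAA were searched on both strands (CCGGAA or TTCCGG), and matches are in capitals. RefSeq start sites were held for 4 of the 6 genes, not for Ret or Etv4.
Gdnf, chr15:7809798-7810047, plus strand: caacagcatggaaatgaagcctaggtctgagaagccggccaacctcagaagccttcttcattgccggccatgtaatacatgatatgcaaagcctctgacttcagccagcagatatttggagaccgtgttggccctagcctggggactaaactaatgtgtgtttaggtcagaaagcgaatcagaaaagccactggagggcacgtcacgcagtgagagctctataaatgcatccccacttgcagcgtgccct
Spry1, chr3:37639697-37639946, plus strand: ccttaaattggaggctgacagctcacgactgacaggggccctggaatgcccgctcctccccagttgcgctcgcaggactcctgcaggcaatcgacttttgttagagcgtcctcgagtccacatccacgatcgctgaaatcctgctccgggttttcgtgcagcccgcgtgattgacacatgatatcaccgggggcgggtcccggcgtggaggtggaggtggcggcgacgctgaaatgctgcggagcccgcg
Etv5, chr16:22438369-22438618, minus strand: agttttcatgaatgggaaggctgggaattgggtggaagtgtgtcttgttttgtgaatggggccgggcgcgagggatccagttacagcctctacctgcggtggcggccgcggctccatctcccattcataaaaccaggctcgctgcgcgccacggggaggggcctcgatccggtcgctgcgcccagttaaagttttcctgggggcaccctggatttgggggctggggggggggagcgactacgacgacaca
Gfra1, chr19:58455537-58455566, minus strand, a part of its window: gagaaagtgaggCCGGAAagagaaagagga

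The window of Gfra1 held 1 match, at position -156 from the start site, and those of Gdnf, Spry1 and Etv5 held 0 matches, as did a further window of each of Gdnf and Etv5. Among 32851 windows of the same length over all genes, 12.03% held these letters. The Gdnf window ends 798 bases before the annotated start of the gene, the Spry1 window ends at it, and the printed window of Etv5 and the window of Gfra1 lie inside the annotated gene. The further window of Gdnf lies inside its gene and that of Etv5 runs across its annotated start. A match describes the letters only and shows no binding. The shorter core GGAA was not counted, and it does occur in the printed windows of Gdnf, Spry1 and Etv5.

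Ret and Gfra1, the receptor and its co-receptor, had their highest levels in the tip of the ureteric bud at both ages. Ureteric tip-like nuclei, 231 at E18.5 and 213 at P3, were named by Wnt11, Sox9, Slco4c1, Hs3st3a1 and other tip markers, all of which were detected at both ages. Ret reached 189 CPM [162, 220] there at E18.5, against 23.6 CPM in the other 1054 ureteric epithelium-like nuclei, a ratio of 8.02 [6.17, 10.49]. At P3 it was at 171 CPM [148, 198] against 5.52 CPM in 292 other nuclei, a ratio of 31.0 [17.3, 61.2]. Of all Ret UMIs in a library, the tip-like nuclei held 38.6% at E18.5 and 61.0% at P3. Gfra1 was at 1663 CPM in the tip and 500 CPM in the other nuclei at E18.5, a ratio of 3.33 [3.11, 3.56]. At P3 the ratio of Gfra1 was 11.9 [10.3, 13.7], from 1307 and 110 CPM. The tip and the rest of the ureteric epithelium-like nuclei therefore stood apart for both genes, and the gap was wider at P3. This rest was mixed. The ureteric epithelium-like type took in Upk1b-led clusters of 91 nuclei at E18.5 and 68 at P3, and an Eya1-led sub-cluster of 32 nuclei at E18.5. Their part in the gap was not tested.

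The wider gap for Ret at P3 depended on which nuclei outside the tip were the reference. Against collecting duct-like nuclei alone (443 at E18.5 and 139 at P3, a reference chosen after the values were seen), the ratio of Ret was 28.9 [15.3, 61.3] at E18.5 and 27.6 [12.4, 76.2] at P3, and the intervals overlapped. The level of Ret in collecting duct-like nuclei was 6.56 CPM from 10 UMIs and 6.21 CPM from 6 UMIs. For Gfra1 the ratio to this reference was still lower at E18.5, at 5.38 [4.85, 5.98], than at P3, at 19.7 [15.3, 25.8]. Here the collecting duct side differed between the ages, with Gfra1 at 309 CPM at E18.5 and 66.3 CPM at P3, a P3 over E18.5 ratio of 0.214 [0.162, 0.279].

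Etv4, Etv5 and Spry1, which act downstream of the receptor, were also highest in the tip at E18.5. Etv4 was at 472 CPM [428, 519] in the tip and 30.5 CPM in the other ureteric nuclei, a ratio of 15.5 [12.6, 19.2]. Etv5 was at 423 CPM [381, 467] and 47.8 CPM, a ratio of 8.85 [7.39, 10.6]. Spry1 was at 113 CPM [92.2, 138] and 33.4 CPM, a ratio of 3.39 [2.58, 4.43]. The 3 genes thus had tip levels above those of every other nuclei type in this library, with intervals of the ratio to the next type above 1. At P3 Etv4 and Etv5 kept this place and Spry1 did not. The ratio of tip to other ureteric nuclei was 14.5 for Etv4 (113 and 7.82 CPM), 10.8 for Etv5 (154 and 14.3 CPM) and 5.31 for Spry1 (56.2 and 10.6 CPM). Gdnf, the ligand, was nearly absent from the tip, with 6 UMIs at E18.5 and 1 UMI at P3.

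**Figure D1:**
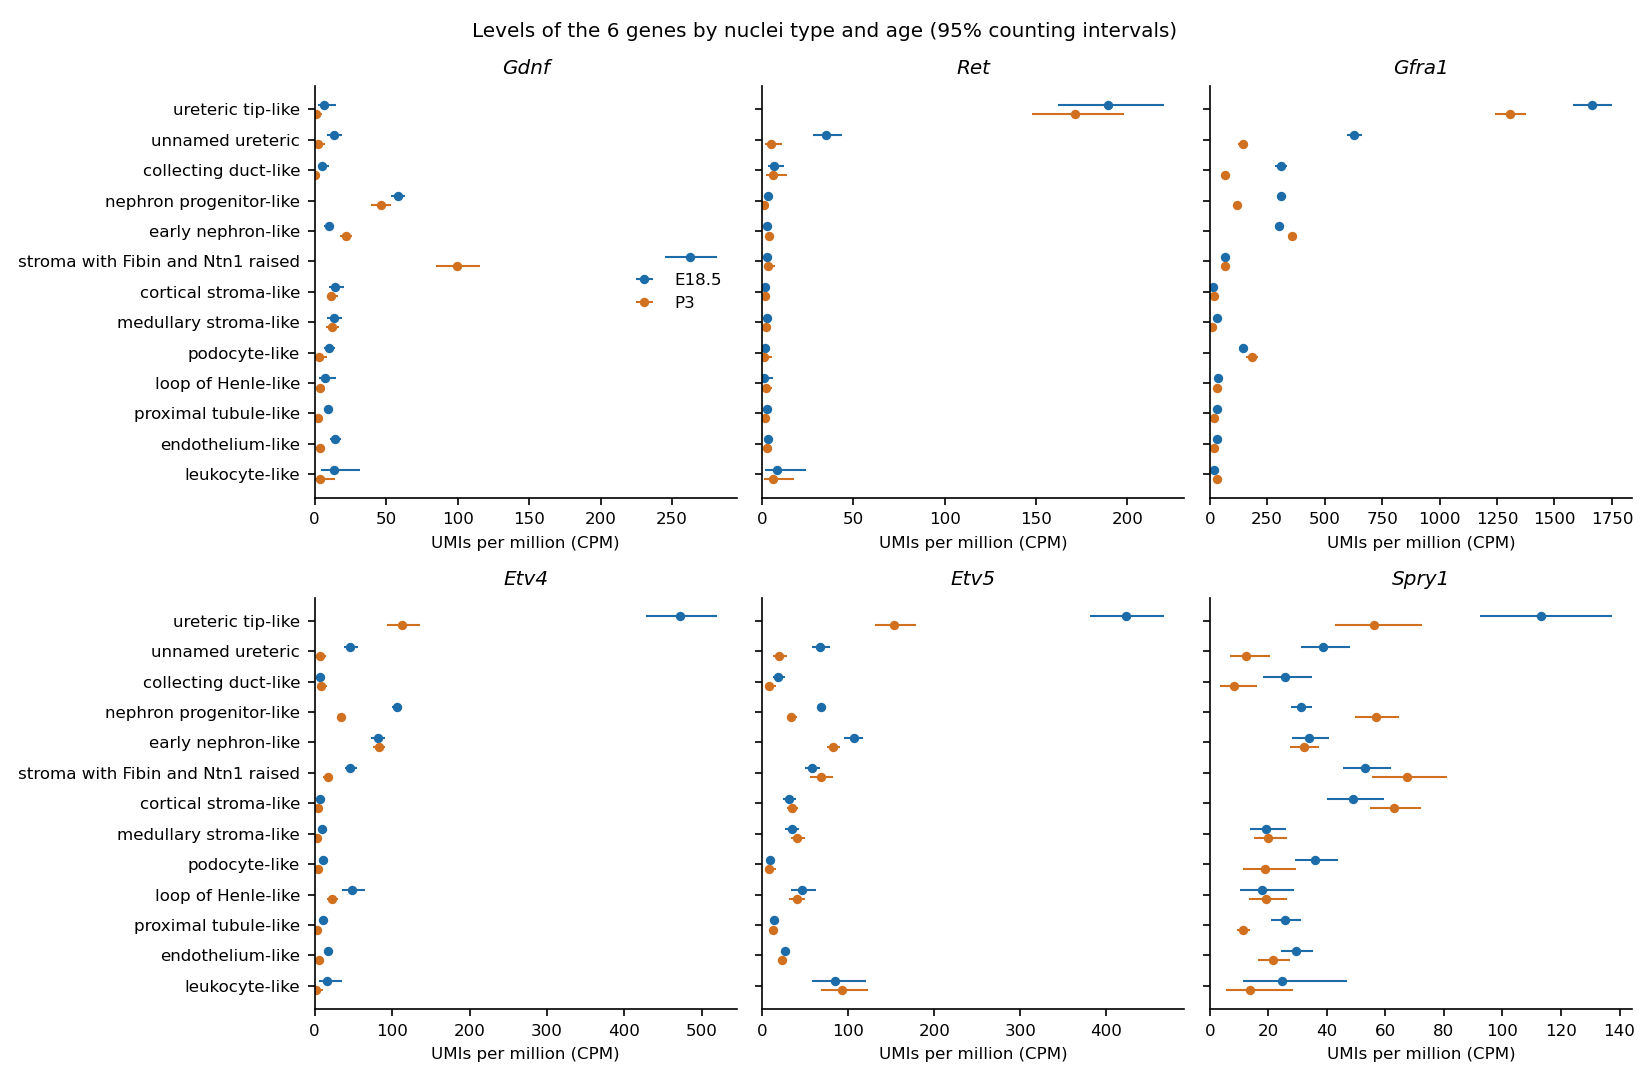
Level of each gene (x axis, CPM, a separate scale for each panel) in 13 nuclei types (y axis) at E18.5 (blue) and P3 (orange), with bars for 95% counting intervals. Ret, Gfra1, Etv4 and Etv5 are highest in ureteric tip-like nuclei at both ages, whereas Gdnf is highest in stroma with Fibin and Ntn1 raised, at 263 and 99.3 CPM.

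Of the 5 genes besides Gdnf, 5 were at least 2-fold higher in the tip than in the other ureteric nuclei at each age (10 CPM added to both sides). Among all genes that passed the same limit on level, 3.21% were at least 2-fold higher and 3.53% at least 2-fold lower at E18.5, and 4.35% and 4.4%, respectively, at P3. The choice of clustering moved the sizes but not the order of tip and other nuclei. Over all alternatives the ratio at E18.5 lay between 7.08 and 45.1 for Ret, 8.53 and 65.4 for Etv4, 7.55 and 23.0 for Etv5, 3.20 and 5.78 for Gfra1 and 2.97 and 4.42 for Spry1. At P3 it lay between 7.65 and 58.3 for Ret, 4.51 and 26.0 for Gfra1, 13.3 and 24.4 for Etv4, 8.79 and 18.55 for Etv5 and 4.28 and 6.79 for Spry1.

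Gfra1 and Etv4 did not end at the border of the tip in the same way. This border depends on the settings, since 374 E18.5 nuclei were in the tip with called doublets kept, instead of 231. Ureteric nuclei were clustered again on their own. At E18.5 a sub-cluster of 327 nuclei led by A330015K06Rik, Kctd16, Cemip and Slit2 had no raised markers of tip or collecting duct. Its place in the kidney was not measured, but its levels of Ret, Gfra1, Etv4, Etv5 and Spry1 lay between those of tip and collecting duct. Gfra1 was at 1089 CPM there and Ret at 65.3 CPM. Etv4 was at 75.5 CPM, Etv5 at 94.9 CPM and Spry1 at 44.9 CPM. The level of Gfra1 was thus nearer to that of the tip than the level of Etv4 was. A sub-cluster of 63 nuclei led by the cell cycle gene Ccnf had Ret at 48.8 CPM, Gfra1 at 801 CPM and Etv4 at 52.9 CPM. Etv5 was at 142 CPM there and Spry1 at 85.4 CPM [52.9, 131], an interval that overlapped that of its tip level. In the collecting duct-like sub-cluster Gfra1 remained at 309 CPM, while Etv4 was at 7.22 CPM, below its background of 17.0 CPM. Proximal tubule-like nuclei also had Etv4 below this background, at 10.4 CPM, so the endothelium-like level is a reference and not a floor. At P3 a sub-cluster of 73 nuclei led by Slc12a1 had Gfra1 at 349 CPM and Ret at 10.45 CPM, and no sub-cluster of at least 40 nuclei outside the tip had Ret above that level.

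**Figure D2:**
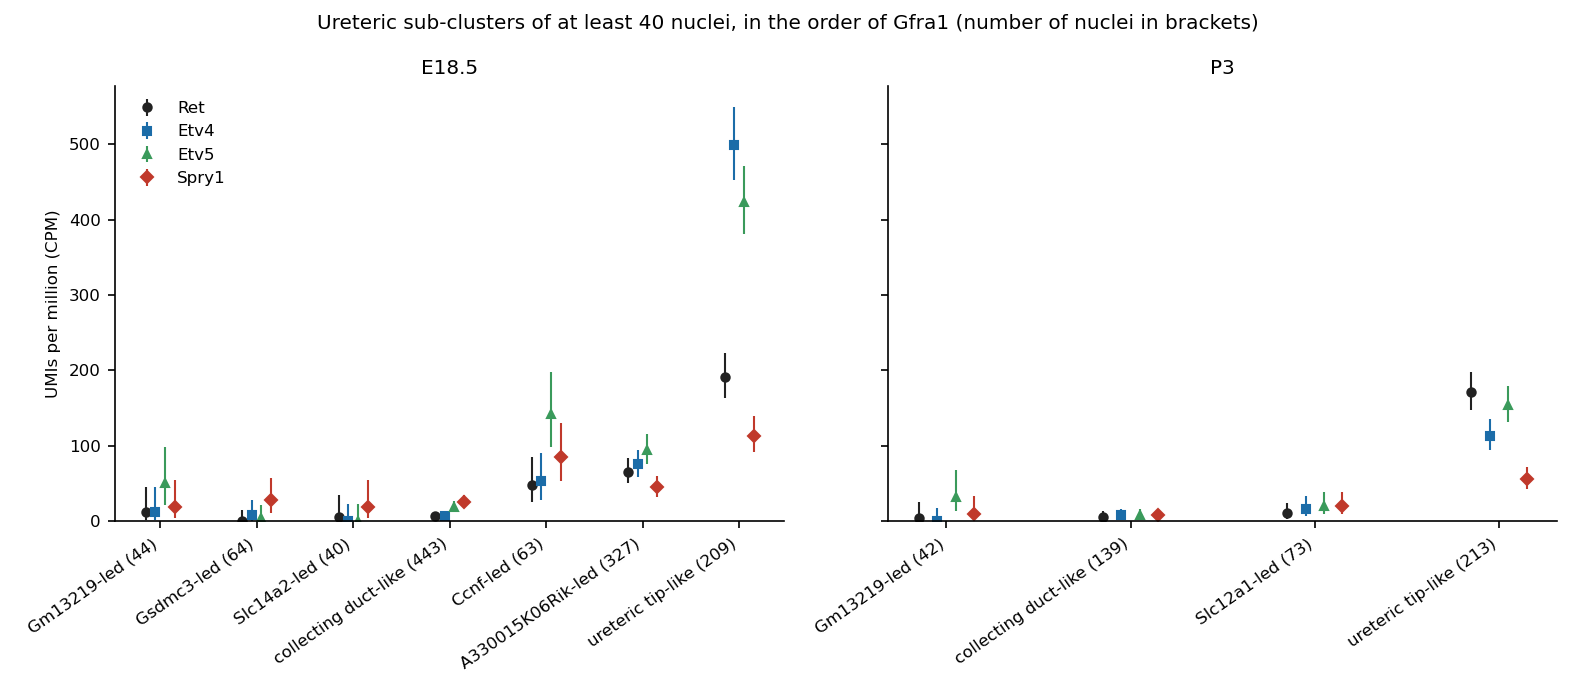
Levels (y axis, CPM) of Ret, Etv4, Etv5 and Spry1 in ureteric sub-clusters of at least 40 nuclei, ordered along the x axis by their level of Gfra1, at E18.5 and P3, with 95% counting intervals. Unnamed sub-clusters carry their leading gene and brackets hold numbers of nuclei. At E18.5 the sub-clusters of 327 and 63 nuclei lie between the tip and the rest in this order by Gfra1.

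Several of the 5 genes were often detected in the same tip nucleus at E18.5 and less often at P3. To make depth equal, 1000 UMIs were drawn at random from every nucleus, which left out 2 tip-like nuclei at E18.5 and 0 at P3. At least 2 of Ret, Gfra1, Etv4, Etv5 and Spry1 were detected in 61.1% of 229 tip-like nuclei at E18.5 and in 24.4% of 213 at P3. Such shares rise with the level of each gene alone. The share that independent detection would give was not calculated, so the values do not show that the genes were joined within nuclei. No gene of the 5 was detected in 8.30% [5.07, 12.7] at E18.5 and 31.0% [24.8, 37.7] at P3. Detection of single genes showed where the ages differed. Gfra1 was detected in 79.5% of thinned nuclei at E18.5 and 59.6% at P3, Etv4 in 39.3% and 5.63%, and Etv5 in 36.2% and 13.6%. Ret was found in 15.3% [10.9, 20.6] and 11.3% [7.35, 16.3]. In endothelium-like nuclei, whose median was 2961 UMIs at E18.5 and 3503 at P3 before thinning, the shares were 2.98% and 1.39% for Gfra1, 1.70% and 0.506% for Etv4, and 0.338% and 0.380% for Ret. The tip-like nuclei had medians of 3303 and 4531 UMIs.

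Without thinning, Gfra1 was detected in 230 of 231 tip-like nuclei at E18.5 and in 194 of 213 at P3. Among thinned P3 nuclei with Ret, 20 of 24 also had Gfra1, a share of 83.3% [62.6, 95.3], against 107 of 189 nuclei without Ret, a share of 56.6%. At E18.5 the shares were 82.9% [66.4, 93.4] of 35 nuclei with Ret and 78.9% of 194 nuclei without it. Whether the shares with and without Ret differ beyond counting error was not calculated at either age, and other pairs of genes are not reported here. The E18.5 share with at least 2 genes was 41.0% when doublets were kept before clustering, in a tip-like group of 374 nuclei instead of 231, and 81.6% at 2000 UMIs per nucleus. The P3 share was 27.4% and 43.6%, respectively, so the age difference kept its direction in both settings.

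**Figure D3:**
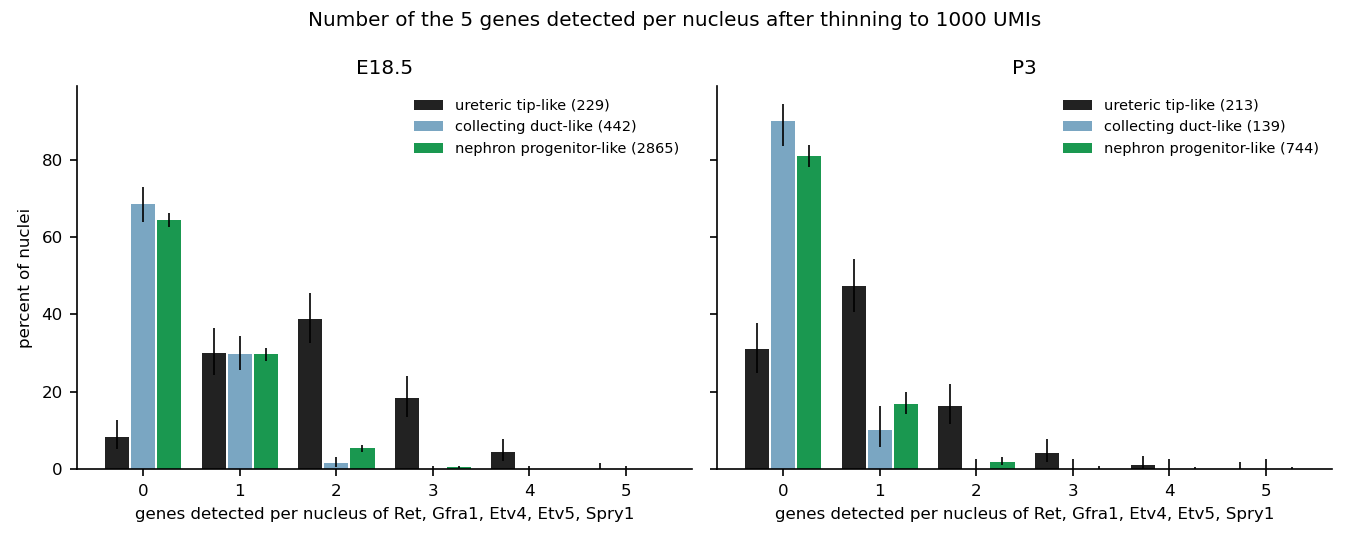
Percent of nuclei (y axis) by how many of Ret, Gfra1, Etv4, Etv5 and Spry1 were detected in a nucleus thinned to 1000 UMIs (x axis), at E18.5 and P3, with 95% exact binomial intervals and numbers of nuclei in brackets. Tip-like nuclei peak at 2 genes at E18.5 and at 1 gene at P3, and most collecting duct-like and nephron progenitor-like nuclei show 0 genes.

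Within the tip, Etv4 and Etv5 were lower at P3 while the level of Ret lay within the counting interval of no change. The P3 over E18.5 ratio was 0.240 [0.195, 0.295] for Etv4 and 0.364 [0.301, 0.438] for Etv5. It was 0.497 [0.355, 0.690] for Spry1, 0.786 [0.730, 0.846] for Gfra1 and 0.905 [0.730, 1.12] for Ret. Of these 5 genes, 0 were at least 2-fold higher and 2, Etv4 and Etv5, at least 2-fold lower with 10 CPM added, against 3.08% and 6% of all genes tested. The median log2 ratio was -0.90 for the 5 genes and -0.08 for all genes.

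These ratios depended on the settings that decide which nuclei are called tip. Other clusterings, doublets kept or quality limits on the linear scale put 364 to 375 E18.5 nuclei in the tip, and the P3 tip then held 213 nuclei with linear limits, 201 with doublets kept, 191 with Leiden clustering and 125 with 20 neighbors. With them the ratio was 0.331 to 0.4995 for Etv4, 0.474 to 0.703 for Etv5 and 1.13 to 1.60 for Ret, so Etv4 and Etv5 stayed below 1 and Ret was above 1. With 20 neighbors in the graph, which gave the highest of these values for Etv4, Etv5 and Ret, Gfra1 reached 1.01. When nuclei were typed by their own marker UMIs, only 49 and 13 tip nuclei remained, and the ratio of Etv4 was 1.40 from 20 UMIs at P3. Tip markers themselves were lower at P3 in the tip-like nuclei, with Wnt11 at 185 and 45.0 CPM, Hs3st3a1 at 835 and 269 CPM and Slco4c1 at 707 and 474 CPM at E18.5 and P3, and their part in the result was not tested.

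A ratio between 2 genes of the same nuclei depends less on the number of nuclei called tip, so UMIs of each gene were also counted per UMI of Ret (a measure chosen after the values were seen). Etv4 had 421 UMIs against 169 of Ret at E18.5, or 2.49 per Ret UMI, and 121 against 183 at P3, or 0.661. The P3 over E18.5 ratio of this measure was 0.265 [0.196, 0.359] for Etv4, 0.402 [0.301, 0.536] for Etv5, 0.549 [0.367, 0.817] for Spry1 and 0.868 [0.691, 1.09] for Gfra1. Over the alternatives in which nuclei were grouped by clusters it was 0.2703 to 0.340 for Etv4, 0.411 to 0.454 for Etv5, 0.464 to 0.565 for Spry1 and 0.632 to 0.886 for Gfra1. Per Ret UMI, the 3 downstream genes were therefore lower at P3 under each of these groupings. With nuclei typed by their own markers the ratio for Etv4 was 0.880 [0.312, 2.60], with 20 Etv4 UMIs at P3.

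The background moved in the same direction for some of the genes. In endothelium-like nuclei the P3 over E18.5 ratio was 0.359 [0.204, 0.604] for Etv4, 0.536 [0.384, 0.739] for Gfra1, 0.730 [0.533, 0.993] for Spry1 and 0.865 [0.632, 1.18] for Etv5. Their tip levels at E18.5 were 27.8 times the endothelium-like level for Etv4, 50.5 times for Gfra1, 3.85 times for Spry1 and 15.8 times for Etv5. In proximal tubule-like nuclei the P3 over E18.5 ratio was 0.280 [0.166, 0.464] for Etv4, 0.516 for Gfra1, 0.439 [0.332, 0.581] for Spry1 and 0.931 for Etv5. In the other ureteric nuclei it was 0.256 for Etv4, 0.220 for Gfra1, 0.317 for Spry1, 0.299 for Etv5 and 0.234 for Ret. Ratios below 1 for Etv4, Etv5 and Spry1 were thus also found in these pooled nuclei outside the tip. In collecting duct-like nuclei alone the ratio was 1.15 [0.401, 3.13] for Etv4, 0.451 [0.178, 1.01] for Etv5, 0.324 [0.131, 0.702] for Spry1 and 0.946 [0.283, 2.87] for Ret. In the unnamed ureteric nuclei it was 0.161 for Etv4 and 0.141 for Ret. These include the E18.5 sub-cluster of 327 nuclei described above, and the part of such nuclei in the pooled ratios was not tested. The endothelium-like level of Spry1, 29.4 and 21.5 CPM, was a larger part of its tip level, 113 and 56.2 CPM, than that of the other genes, and the part of the background in these ratios was not tested.

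**Figure D4:**
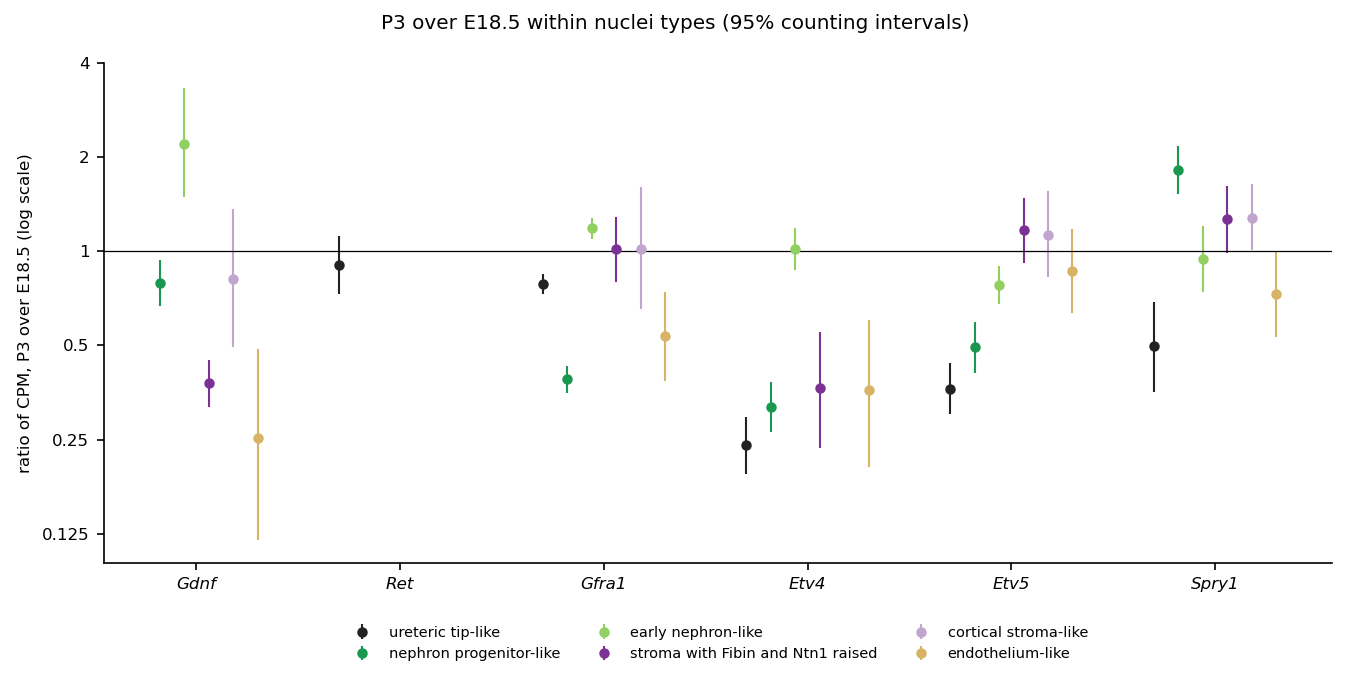
Ratio of the P3 level to the E18.5 level (y axis, log scale) of each gene in 6 nuclei types, with 95% counting intervals, drawn where a type had at least 50 UMIs of the gene over both ages. The line marks a ratio of 1. In ureteric tip-like nuclei (black) Etv4 and Etv5 lie at 0.240 and 0.364 and Ret at 0.905.

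Gdnf had its highest level in a part of the stroma and not in nephron progenitors. Stromal nuclei were clustered again, and sub-clusters in which both Fibin and Ntn1, markers of the nephrogenic zone, were raised held 983 nuclei at E18.5 and 423 at P3. This group was chosen after the clusters were seen, and it is called by these genes because it had fewer than 3 raised markers of that stroma. Foxd1, the defining marker of nephrogenic stroma, was at 65.3 CPM there at E18.5 and 6.02 CPM at P3. Gdnf was at 263 CPM [245, 281] in these nuclei at E18.5 and 99.3 CPM [84.8, 116] at P3. Nephron progenitor-like nuclei, 2871 and 744, had Gdnf at 58.3 CPM [53.7, 63.1] and 46.2 CPM [39.7, 53.4]. The ratio of this stroma to progenitors was 4.51 [4.05, 5.02] at E18.5 and 2.15 [1.73, 2.67] at P3. This ratio sets a selected part of the stroma against a whole type, and no ratio to single nephrogenic sub-clusters was calculated. The order at P3 held for this part of the stroma alone. Over all stroma-like nuclei Gdnf was at 77.7 CPM [73.5, 82.1] at E18.5, above the progenitors, and at 28.7 CPM [26.0, 31.7] at P3, below them. Cortical stroma-like nuclei had Gdnf at 14.4 and 11.8 CPM and medullary stroma-like nuclei at 13.5 and 11.95 CPM, close to the endothelium-like level at E18.5.

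The stromal level was shared by sub-clusters with and without cell cycle genes among their leading genes. At E18.5 it was 266 CPM in a sub-cluster of 630 nuclei led by Gm29771 and 258 CPM in another of 353 nuclei whose leading genes included Ect2 and Cep55, which act in cell division. Gdnf, which was not used for clustering, stood among the 10 leading genes of both. Other stromal sub-clusters with Gdnf were led by Lrp1b, with Foxd1 and Ntn1 raised (211 nuclei, 114 CPM), and by Sema5b, with mural markers raised (173 nuclei, 100.9 CPM). After thinning, Gdnf was detected in 21.6% [19.1, 24.3] of Fibin and Ntn1 stroma, 5.65% [4.84, 6.56] of nephron progenitor-like nuclei and 1.02% [0.527, 1.78] of endothelium-like nuclei at E18.5. At P3 the shares were 9.69%, 4.70% and 0.759%. Of all Gdnf UMIs, this stroma held 36.8% at E18.5 and 20.4% at P3, and nephron progenitor-like nuclei held 26.4% and 22.5%.

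Nephron progenitor-like nuclei still had more Gdnf than most nuclei. The ratio to all other nuclei was 1.63 [1.481, 1.79] at E18.5 and 3.06 [2.58, 3.61] at P3, and the ratio to endothelium-like nuclei was 4.17 [3.17, 5.59] and 13.1 [7.14, 26.7]. The label was checked against its markers. Eya1, which is needed for Gdnf expression, was at 1469 and 1861 CPM, Six2 at 24.2 and 11.9 CPM, and Cited1, a marker of uncommitted progenitors, at 29.0 CPM at E18.5 and 1.27 CPM at P3. Wnt4, an early differentiation gene, was at 103 CPM at E18.5 and 362 CPM at P3, so the P3 nuclei of this name carried few of the transcripts of uncommitted progenitors. Within nephrogenic nuclei, which join the progenitor-like and early nephron-like types, Gdnf was highest in a sub-cluster led by Alk at both ages. It was at 93.1 CPM in 124 nuclei at E18.5 and 80.1 CPM in 140 nuclei at P3. Fibin and Ntn1 stroma had 263 and 99.3 CPM, and whether the 2 differ at P3 beyond counting error was not calculated. In a second naming among nephrogenic nuclei alone, the Alk-led E18.5 sub-cluster was early nephron-like. It had Wnt4, Lhx1, Jag1, Pax8, Dll1 and Ccnd1 raised and no raised progenitor marker. This naming did not change the nuclei types, so its nuclei can belong to either of the joined types. At E18.5 only the Dync1i1-led sub-cluster, of 1198 nuclei, was named nephron progenitor-like in this way, against 2871 nuclei of that type.

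**Figure D5:**
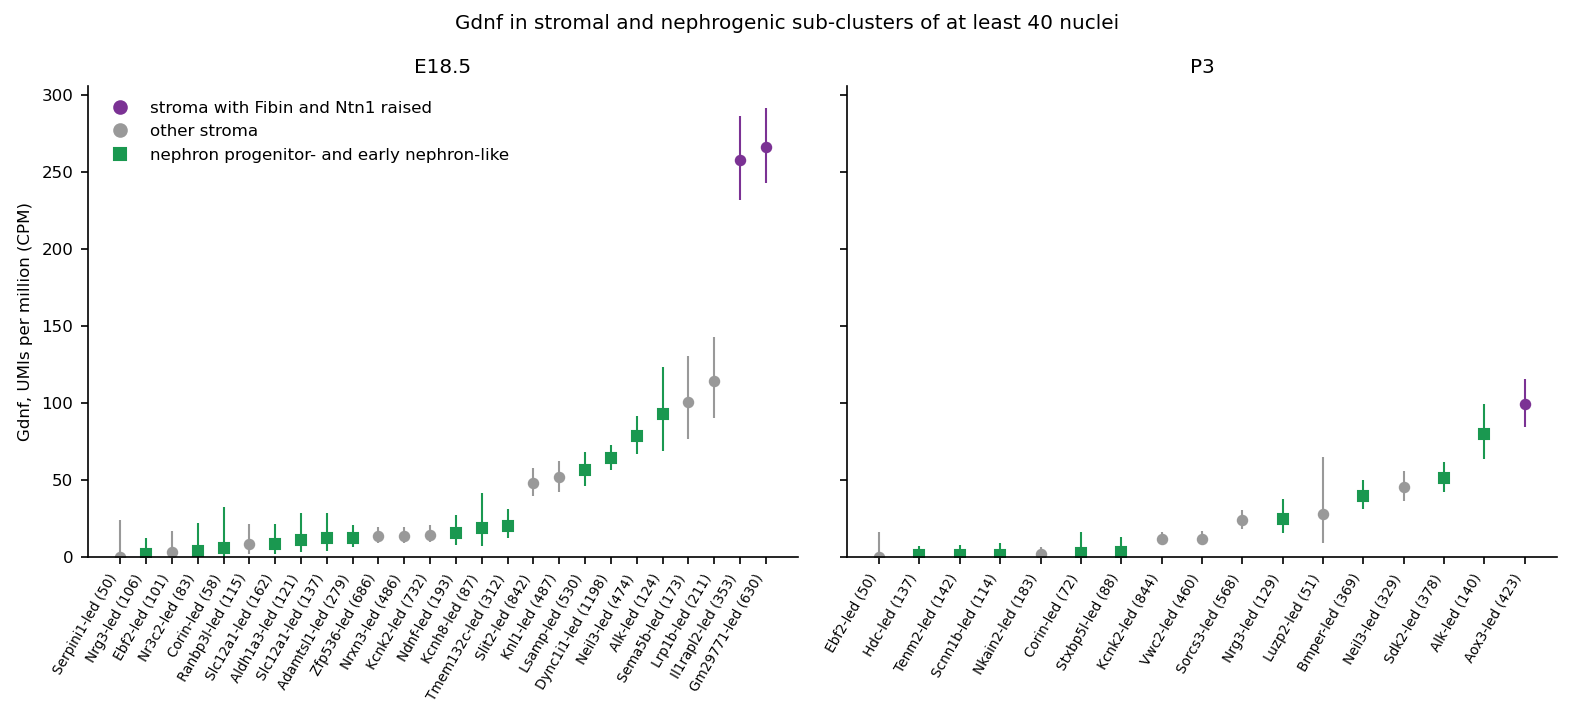
Gdnf level (y axis, CPM) in stromal and nephrogenic sub-clusters of at least 40 nuclei (x axis, named by their leading gene, numbers of nuclei in brackets) at E18.5 and P3, with 95% counting intervals. The sub-clusters with Fibin and Ntn1 raised (purple) are highest at both ages, at 266 and 258 CPM at E18.5 and 99.3 CPM at P3.

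Between the ages, Gdnf was lower at P3 in the stroma and, by less, in nephron progenitor-like nuclei. The P3 over E18.5 ratio was 0.378 [0.318, 0.448] in Fibin and Ntn1 stroma and 0.792 [0.667, 0.937] in nephron progenitor-like nuclei. In early nephron-like nuclei, the next stage of nephron formation, it was 2.20 [1.496, 3.32], from 9.93 and 21.9 CPM. This type did not hold the same clusters at both ages. At E18.5 it was a cluster led by Nrcam, without raised Wnt4 or Dll1. At P3 it also joined a Rmst-led cluster of 238 nuclei with Wnt4 and Dll1 raised and a Grid1-led cluster of 228 nuclei. The Grid1-led E18.5 cluster, of 1148 nuclei, was unnamed. The part of these differences in the ratio was not tested. The endothelium-like background of Gdnf had a ratio of 0.252 [0.119, 0.487], no nearer to 1 than that of the stroma, and its part in the stromal ratio was not tested. The stromal ratio was 0.399 at most under the alternatives that kept clusters. Nuclei typed by their own markers left 6 P3 stromal nuclei with 0 Gdnf UMIs, which gives a ratio of 0 without weight. No P3 cluster was named nephron progenitor-like under Leiden clustering or with 20 neighbors, so the P3 progenitor values rest on the remaining settings.

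Gfra1 was also found where Ret was not. In nephron progenitor-like nuclei it was at 309 CPM at E18.5 and 120 CPM at P3, and in early nephron-like nuclei at 300 and 356 CPM. Podocyte-like nuclei, the filtration cells of the glomerulus, had 147 and 183 CPM. Ret was between 0.761 and 3.72 CPM in these 3 types, not above its background of 2.99 and 2.89 CPM beyond counting error. The level in nephrogenic nuclei was uneven. At P3 a sub-cluster of 129 nuclei led by Nrg3 had Gfra1 at 1183 CPM, near the 1307 CPM of the tip, with Ret at 2.27 CPM. At E18.5 the sub-clusters led by Nrg3 (106 nuclei) and Kcnh8 (87 nuclei) had Gfra1 at 511 and 509 CPM. The P3 over E18.5 ratio of Gfra1 was 0.390 [0.353, 0.430] in nephron progenitor-like nuclei, 1.19 [1.10, 1.28] in early nephron-like nuclei and 1.25 [1.04, 1.49] in podocyte-like nuclei.

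Etv4 and Etv5 were likewise present in nephrogenic nuclei without Ret. Outside the tip, Etv4 was highest in nephron progenitor-like nuclei at E18.5, at 107 CPM, and in early nephron-like nuclei at P3, at 82.7 CPM. Etv5 was at 106 and 82.7 CPM in early nephron-like nuclei. Both genes had ratios below 1 between the ages in nephron progenitor-like nuclei, 0.319 [0.264, 0.382] for Etv4 and 0.494 [0.407, 0.595] for Etv5, whereas Etv4 in early nephron-like nuclei had 1.02 [0.872, 1.18]. The last value compares a type made of different clusters at each age. The Kcnh8-led and Alk-led sub-clusters had Etv4 at 213 and 196 CPM at E18.5.

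Etv5 and Spry1 also had levels outside the epithelia. Leukocyte-like nuclei had Etv5 at 85.0 CPM from 31 UMIs at E18.5 and 92.7 CPM from 47 UMIs at P3, which was 3.19 [2.06, 4.79] and 4.02 [2.72, 5.88] times the endothelium-like level. Etv4 in the same nuclei was at 16.5 and 1.97 CPM, not above its background. Spry1 was the gene with the flattest pattern. At P3 it was at 67.4 CPM in Fibin and Ntn1 stroma, 62.9 CPM in cortical stroma-like, 56.8 CPM in nephron progenitor-like and 56.2 CPM in tip-like nuclei, and neighbors in this order did not differ beyond their counting intervals. In nephron progenitor-like nuclei it was higher at P3, at a ratio of 1.82 [1.53, 2.17].

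Other genes of the pathway were taken from 7 lists and compared between tip and other ureteric nuclei. Among feedback inhibitors besides Spry1, 4 of 6 genes that passed the limit on level were at least 2-fold higher in the tip at E18.5 and 3 of 4 at P3, with median log2 ratios of 1.16 and 1.37, against 0.02 and 0.08 over all genes tested, of which 3.21% and 4.35% were at least 2-fold higher. Spry2, another Sprouty, had ratios of 2.54 [1.85, 3.46] and 3.91 [2.36, 6.61]. Spred1 and Spred2, related inhibitors of RAF activation, had ratios of 2.78 and 2.66 at E18.5 and 3.99 and 2.74 at P3. Spry4 was at 23.5 and 4.51 CPM at E18.5, from 21 and 17 UMIs.

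Among genes known to respond to RET or to ETV4 and ETV5, 2 of 7 were higher at E18.5 and 3 of 6 at P3, against 3.21% and 4.35% of all genes. Wnt11, which is among them at both ages, had been a naming marker of the tip and is no finding. Myb had ratios of 1.98 [1.23, 3.12] and 3.78 [1.90, 7.83], and Met, the receptor of hepatocyte growth factor, 1.75 [1.4832, 2.06] at E18.5. At E18.5 Myb and Met were both under 2-fold and are not among the 2 genes counted. Cxcr4 was under the limit on level.

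Few genes of the remaining lists moved by 2-fold in the tip, where 3.21% of all genes were higher and 3.53% lower at E18.5 and 4.35% and 4.4% at P3. In the ERK cascade and RET adaptors, 1 of 21 genes at E18.5 was higher, the adaptor Gab2 at 2.96 [2.68, 3.26], and 0 of 21 at P3. Of the regulators of Ret, 1 of 10 was higher at E18.5 and 2 of 10 at P3, and these, Sox9 and Lhx1, had been naming markers too. Of the regulators of Gdnf, 1 of 15 was lower at E18.5, Npnt, which encodes the bud matrix protein nephronectin, and 1 of 11 was higher at P3, Slit2, which encodes a ligand that restricts the Gdnf domain. Fgfr2, a receptor that feeds the same ERK cascade, was the 1 gene of 4 in the FGF list that was lower at E18.5, at a ratio of 0.443 [0.412, 0.475], and at P3 0 of 3 passed. In the list of other GDNF family ligands and receptors 0 of 2 genes passed at either age.

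Between the ages within the tip, 1 of 6 feedback inhibitors, Spry4, and 1 of 7 responsive genes, the naming marker Wnt11, were at least 2-fold lower at P3, against 6% of all genes, and 3.08% of all genes were higher. Of 13 regulators of Gdnf, 1 was higher, Npnt at 2.84 [2.41, 3.36], and 3 were lower, Eya1, Robo2 and Bmp4. Fgfr2 was higher at P3, at 2.10 [1.93, 2.27], as the 1 of 4 genes of the FGF list. Of 10 regulators of Ret, 21 ERK cascade genes and 2 GDNF family genes, 0 passed in either direction.

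Between Fibin and Ntn1 stroma and nephron progenitor-like nuclei at E18.5, 1 of the 5 genes of the axis above the limit was at least 2-fold higher in the stroma, Gdnf, and 2 were at least 2-fold lower, Gfra1 at 0.213 [0.185, 0.246] and Etv4 at 0.433 [0.361, 0.515]. Among all genes, 4.5% were higher and 4.11% lower. Of 17 known regulators of Gdnf, 0 were higher in the stroma and 8 were lower. The list holds genes that restrict the Gdnf domain, such as Slit2, beside genes needed for Gdnf, such as Eya1. It therefore has no single expected direction. Eya1 was at 61.8 CPM in the stroma and 1469 CPM in the progenitors, a ratio of 0.0420 [0.0363, 0.0484], and Wt1 had a ratio of 0.199 [0.181, 0.217]. Eya1, Six2, Osr1 and Itga8 are on this list and had also been naming markers of the progenitors, raised in their E18.5 cluster. A lower level of these genes in the stroma is therefore no finding. Of the feedback inhibitors 1 of 6, Spry2, was higher in the stroma at 2.52 [2.08, 3.06], and 2 of 4 FGF genes were lower, Fgf10 at 0.129 [0.0922, 0.177] and Fgf9 at 0.204 [0.104, 0.365]. Gab2 was the 1 of 20 ERK cascade genes that was higher, at 2.90 [2.76, 3.04]. Of the regulators of Ret 1 of 9 was higher and 3 were lower, and 2 of 4 responsive genes and 2 of 3 GDNF family genes were lower.

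Genes with the most similar pattern to each of the 6 were ranked by Pearson's r of log2(CPM + 10) over the 25 clusters of the E18.5 library. Where values are given, r over the 28 clusters of the P3 library is beside it. Clusters of one library share depth and free RNA, and genes are not independent, so r is a description. Gdnf was most like Ntsr1 (r of 0.83 at E18.5 and 0.54 at P3), followed by Runx2os1, Hs6st2, Rspo3 and B3glct. Ret was most like Gm14133 (0.84 and 0.82), then Crb1, Nrg3os, Gm20642 and Bcat1. Gfra1 was most like Hnrnph3 (0.86 and 0.65), then Sel1l3, 1700039E22Rik, Il17rb and Gm20395. Etv4 was most like Cdca7l (0.81 and 0.69), then Kdm2b, its partner Etv5 (0.79 and 0.62), Mcm8 and Gm28376. Etv5 was most like Hells (0.83 and 0.54), then Ncapg, Cenpn and Hat1, and Spry1 was most like Hpf1 (0.70 and 0.48), then Cenpu, Nup85, Rprm and Smc3. The ranking is of E18.5 alone, and some later genes had a low r at P3. It was 0.26 for Runx2os1 with Gdnf and 0.13 for Il17rb with Gfra1. With Spry1 it was 0.29 for Cenpu, 0.31 for Smc3 and -0.03 for Rprm. Others kept a high r, such as Gm20642 with Ret (0.75 and 0.85).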

How the data were processed

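Kidneys of each age were pooled by the authors and nuclei were sequenced with the 10x Genomics Chromium 3′ kit. The deposited matrices hold raw UMI counts for every gene and barcode, made by the authors with Cell Ranger. Per the file headers Cell Ranger 7.0.0 made the E18.5 matrix and 5.0.1 the P3 matrix, whereas the submitters' processing notes name 5.0.1 and mm10. Whether intronic reads were counted is not given in the sources used here, and such reads could change the level of long genes such as Gfra1 between the libraries. The genes span from 4652 bases (Spry1) to 220306 bases (Gfra1). Ratios between the ages, also those per Ret UMI, could therefore be touched unequally, which was not tested. The 6 genes and all lists were chosen with earlier results of these data known.

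The quality limits followed the methods of the study, which do not name a scale, and the log scale was chosen here. A limit of 3 median absolute deviations from the median removed nuclei with low log UMIs or log genes, or with a high mitochondrial percentage (at least 0.5 points above). Of 21600 barcodes at E18.5, 112 had low values and 218 high mitochondrial percentages, and of 12216 at P3, 0 and 451. Scrublet in scanpy 1.11.5 (expected rate 0.1) then called 3521 and 2049 doublets, which were removed. Size factors came from scran 1.30.0 (R 4.3.3), the 2000 most variable genes without the 6 genes gave 50 components, and a graph of 10 neighbors was clustered with Walktrap (bluster 1.12.0, igraph 2.1.4), separately for each library and again within ureteric, stromal and nephrogenic nuclei. A cluster was named "-like" when at least 3 markers of a list were raised (at least 10 UMIs and 2-fold over the other nuclei with 10 CPM added), no other list had more markers among its 10 leading genes and no other list scored above 0.8 of its score. Some named clusters had 0 markers among those genes, including 22 of the 231 E18.5 tip-like nuclei and all 139 P3 collecting duct-like nuclei. Unnamed clusters held 4034 and 1628 nuclei, most of them in a cluster with hemoglobin transcripts at each age.

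UMIs were summed per type and library (Python 3.11.15, numpy 2.4.6, scipy 1.17.1, pandas 2.3.3, figures with matplotlib 3.10.9). Counts over all genes use those with a mean of at least 10 CPM in the compared groups and a 2-fold limit with 10 CPM added. The genes named are the 6 genes, markers, genes of the pathway lists past 2-fold with at least 20 UMIs (the largest folds first), the 5 genes most like each of the 6 among those with at least 100 UMIs in each library, and genes that overlap them. Leading genes of clusters, and Met and Cxcr4, were named after their values were seen. TMM sizes came from edgeR 4.0.16 and median-of-ratios sizes from DESeq2 1.42.0, without any test. Of the gene identifiers, 99.6% were found in the annotation. Proteins were not analysed here, and some genes that met the naming rule are not reported here.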

Additional observations from a re-analysis of the deposited data

Results flagged for a closer look

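For 4 comparisons between nuclei types the ratio lay on opposite sides of 1 at the 2 ages, with a counting interval that excluded 1 at each age. The difference between the ages was not tested, since each age had 1 library. Etv4 in nephron progenitor-like over early nephron-like nuclei had a ratio of 1.31 [1.15, 1.496] at E18.5 and 0.411 [0.336, 0.50002] at P3. Etv5 in nephron progenitor-like over all other nuclei had 1.46 [1.34, 1.59] at E18.5 and 0.832 [0.693, 0.992] at P3. Etv5 in stroma with Fibin and Ntn1 raised over nephron progenitor-like nuclei had 0.847 [0.716, 0.998] at E18.5 and 2.002 [1.54, 2.59] at P3. Spry1 in nephron progenitor-like over all other nuclei had 0.845 [0.747, 0.954] at E18.5 and 1.88 [1.63, 2.17] at P3. Each of the 4 rests on nephron progenitor-like nuclei, whose Cited1 level was 29.0 CPM at E18.5 and 1.27 CPM at P3 and whose Wnt4 level was 103 and 362 CPM, and the part of this difference in the ratios was not tested. The Etv4 comparison also rests on early nephron-like nuclei, which came from different clusters at the 2 ages, and the part of this was not tested either.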

How the results depend on the processing

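Of 206 alternative values of ratios and shares, 146 lay within the counting interval of the value reported, 57 lay outside it, and 3 lay on the other side of 1 from a value whose interval excluded 1. The 57 include 5 values above 1 for Ret between the ages, whose reported interval included 1. With only nuclei of at least 2000 UMIs, 25 of 25 values stayed within the counting interval. That setting changed little, since it kept 217 of 231 tip-like nuclei at E18.5 and 204 of 213 at P3. A limit of 1 CPM in place of 10 CPM changed none of 56 list counts by over 1.5 times. It could hardly do so, because few genes of such low level reach 2-fold with 10 CPM added to both sides. In the E18.5 tip it raised the genes tested from 10933 to 16594 and those at least 2-fold higher from 351 to 362. No paired analysis was possible because each age has 1 library. Whole clusters, the collecting duct-like reference, the stroma with Fibin and Ntn1 raised and the measure per Ret UMI were chosen after seeing the data. The cause of the shifts below was not tested. Typing nuclei by their own markers left few of them, with 49 and 13 in the tip at E18.5 and P3, and also applied another rule for each type.

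For Ret in the tip over other ureteric nuclei, whole clusters gave 45.1 at E18.5, the collecting duct-like reference gave 28.9 at E18.5, and marker-typed nuclei gave 7.65 at P3. For Gfra1 at E18.5, doublets kept, 20 neighbors, linear limits, marker-typed nuclei, whole clusters and the collecting duct-like reference gave 3.74, 4.04, 3.67, 3.72, 5.78 and 5.38. At P3, Leiden, 20 neighbors, marker-typed nuclei, a mean over nuclei, whole clusters and the collecting duct-like reference gave 10.3, 6.504, 4.51, 9.18, 26.0 and 19.7. For Etv4 at E18.5, 20 neighbors, marker-typed nuclei, whole clusters and the collecting duct-like reference gave 20.7, 8.53, 20.3 and 65.4. For Etv5, 20 neighbors, whole clusters and the collecting duct-like reference gave 10.7, 12.8 and 23.0 at E18.5, and that reference gave 18.55 at P3.

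For P3 over E18.5 in the tip, doublets kept, Leiden, 20 neighbors and linear limits gave 1.16, 1.19, 1.60 and 1.13 for Ret, 0.355, 0.354, 0.4995 and 0.331 for Etv4 and 0.498, 0.491, 0.703 and 0.474 for Etv5. Leiden, 20 neighbors and linear limits gave 0.892, 1.01 and 0.869 for Gfra1, and 20 neighbors gave 0.740 for Spry1. Marker-typed nuclei gave 1.59 for Ret, 0.996 for Gfra1, 1.40 for Etv4, 0.957 for Etv5 and 0.931 for Spry1. Whole clusters gave 0.362 for Etv4 and 0.484 for Etv5. TMM, median-of-ratios sizes and a mean over nuclei gave 0.868, 0.858 and 0.718 for Gfra1.

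For Gdnf in nephron progenitor-like over all other nuclei at E18.5, doublets kept, Leiden and 20 neighbors gave 1.84, 1.83 and 1.85. For Gdnf in stroma with Fibin and Ntn1 raised over nephron progenitor-like nuclei at E18.5, Leiden, 20 neighbors and marker-typed nuclei gave 3.82, 3.89 and 3.24, and marker-typed nuclei gave 0 at P3 and 0 for P3 over E18.5, with 6 nuclei. At P3, Leiden and 20 neighbors named no nephron progenitor-like cluster and gave no value. The share of tip-like nuclei with at least 2 of 5 genes was 81.6% at 2000 UMIs and 41.0% with doublets kept at E18.5, and 43.6% at 2000 UMIs at P3.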

Other observations

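Nuclei of unnamed clusters belonged to no named type. They count in the levels over all nuclei, the shares of all UMIs, the values of r and the comparison with all other nuclei. They held 60 of the 438 Ret UMIs at E18.5 and 19 of the 300 at P3. These were levels of 7.02 and 8.74 CPM, against 2.99 and 2.89 CPM in endothelium-like nuclei and 7.77 and 6.59 CPM over all nuclei. Their medians were low, at 1333 and 976 UMIs, against 2920 and 4037.5 UMIs over all nuclei. Gdnf was at 18.4 and 25.8 CPM and Spry1 at 40.6 and 56.1 CPM in them. Loop of Henle-like nuclei, which are not known to use the axis, had Etv4 at 48.4 CPM from 46 UMIs at E18.5 and 22.2 CPM from 42 UMIs at P3, with Ret at 1.05 and 2.12 CPM. Intercalated-like nuclei, named for cells that transport acid and base in the collecting system, had Gfra1 at 84.9 CPM from 24 UMIs and 125 CPM from 47 UMIs. Among 27 neuron-like nuclei, found at E18.5 only, Ret was at 19.8 CPM, and among 49 mural-like nuclei at 19.5 CPM, each from 3 UMIs.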
